A study of Homo sapiens with 32 samples.

Results

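The 8 cell lines described here are the erythroleukaemia lines F-36P, HEL, KMOE-2, OCI-M1 and OCI-M2 and the megakaryoblastic lines MO7E, MOLM-16 and SET2, out of 32 acute myeloid leukaemia (AML) cell lines in the series. They were chosen by the cell type that each line is known to represent, not by any value on the arrays. The sample labels name the line but give no lineage, so the sides come from what is known of the lines. Each line was profiled once, untreated, by hybridising its total RNA to an Affymetrix genome-wide expression array. The series was made to set expression beside the lines' response to an inhibitor of the PIM kinases, a readout that is not used here. Per the labels, HEL, KMOE-2, MO7E and SET2 were grown in RPMI 1640 with no cytokine named, F-36P in RPMI 1640 with interleukin-3 at 5 ng/ml, and OCI-M1 and OCI-M2 in IMDM. The medium of MOLM-16 is not given in the sources used here. HEL and SET2, which stand on opposite sides, both carry the activating JAK2 mutation V617F.

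The lines stand for cells at a fork in blood formation. A shared precursor gives rise to red cell precursors, which fill with haemoglobin under GATA1 and KLF1, and to megakaryocytes, large cells that shed platelets and carry integrins and glycoproteins for clotting, under GATA1 with FLI1, ERG and other ETS family factors. Leukaemias of this branch often keep genes of both fates. Each line is the outgrowth of 1 leukaemia adapted to culture, so the groups hold 5 and 3 separate leukaemias, and every error and p-value below measures the spread between lines and not that of repeated cultures.

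All values are log2(signal + 16), where the signal is the authors' normalised array intensity, with 1 probe set per gene; fold changes of dim genes are understated on this scale. The median over all probe sets and arrays, called the array median below, was 6.73, and levels near 4 to 5 are at the floor of the scale. The 8 arrays had median signals of 70.0 to 95.9 (68.2 to 243.3 over all 32) and 3'/5' GAPDH signal ratios of 0.88 to 0.999 (0.871 to 7.08 over all 32), so none of the 8 was among the arrays with the high ratios that mark RNA loss at the 5' end. In bulk RNA, fewer expressing cells and less RNA per cell cannot be told apart. For comparison with the rest of the series, the other 24 lines were taken as 22 units, because HL-60 with PLB-985 and KG-1 with KG-1A are closely related lines and were averaged. Most of these lines were grown in RPMI 1640 with no cytokine named, but OCI-AML2, OCI-AML3 and OCI-AML5 had alpha-MEM to which GM-CSF or SCF was added, SH-2 and SHI-1 had IMDM, and for MOLM-13 and MV4-11 the medium is not given in the sources used here.

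Promoters are shown for 4 genes described below. CYYR1 was the only gene called between the sides. It entered the test only through the megakaryoblastic lines, and its call depended on single lines. KLHL9 was at the floor in HEL and SET2. CAVIN2 was higher in all 8 lines than in every other unit. EPB42, a red cell gene, was highest in HEL and SET2 but was not called over the 8 lines. The windows run from 250 bases before to 50 after the start of the RefSeq gene on GRCh38.p14, on the gene's strand: CYYR1 at chr21:26573237-26573536, minus strand; KLHL9 at chr9:21335355-21335654, minus strand; CAVIN2 at chr2:191847039-191847338, minus strand; EPB42 at chr15:43220969-43221268, minus strand. Capitals mark matches on either strand to AGATAA (bound by GATA factors), GGAAGT (bound by ETS factors) or CCACACCC (bound by KLF factors), which occur in 10.3%, 22.8% and 3.28% of 35116 promoter windows of this length; the motifs do not overlap each other in these 4 windows.
CYYR1: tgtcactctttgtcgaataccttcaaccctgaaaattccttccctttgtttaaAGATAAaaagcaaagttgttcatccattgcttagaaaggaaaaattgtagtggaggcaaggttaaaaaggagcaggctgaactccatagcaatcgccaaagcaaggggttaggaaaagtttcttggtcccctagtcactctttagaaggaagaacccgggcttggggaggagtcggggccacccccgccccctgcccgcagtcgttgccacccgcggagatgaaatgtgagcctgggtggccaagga
KLHL9: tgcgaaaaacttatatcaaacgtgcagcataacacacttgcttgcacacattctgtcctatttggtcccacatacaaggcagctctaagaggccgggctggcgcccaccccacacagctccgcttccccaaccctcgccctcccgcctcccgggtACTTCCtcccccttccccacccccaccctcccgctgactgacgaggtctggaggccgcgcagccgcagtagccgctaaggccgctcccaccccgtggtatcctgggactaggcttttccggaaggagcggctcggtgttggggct
CAVIN2: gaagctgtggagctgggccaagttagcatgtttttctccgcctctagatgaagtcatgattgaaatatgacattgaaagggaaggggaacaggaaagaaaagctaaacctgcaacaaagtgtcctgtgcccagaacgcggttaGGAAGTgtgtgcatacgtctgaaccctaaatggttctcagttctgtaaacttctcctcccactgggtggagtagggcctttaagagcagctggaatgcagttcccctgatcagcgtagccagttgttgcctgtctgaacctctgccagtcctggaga
EPB42: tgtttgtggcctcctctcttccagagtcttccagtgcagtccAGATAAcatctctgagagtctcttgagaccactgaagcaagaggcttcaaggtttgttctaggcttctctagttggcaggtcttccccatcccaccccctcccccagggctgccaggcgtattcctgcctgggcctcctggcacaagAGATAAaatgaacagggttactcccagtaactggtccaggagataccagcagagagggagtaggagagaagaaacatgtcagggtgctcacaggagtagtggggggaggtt
The CYYR1 window held 1 AGATAA and the EPB42 window 2. The KLHL9 and CAVIN2 windows each held 1 GGAAGT, that of KLHL9 on the reverse strand, and no CCACACCC was found in any of the 4. A match is a description of the letters and not a binding site.

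The sides were first set against genes that define the lineages, and many of these genes did not follow the sides. GATA1, the zinc finger factor of both lineages, was 10.98 in F-36P, 11.00 in HEL, 10.27 in KMOE-2, 11.25 in OCI-M1 and 11.36 in OCI-M2, and 9.18 in MO7E, 10.72 in MOLM-16 and 10.62 in SET2, so it was well above the array median in all 8. KLF1, the factor that switches on adult globin and red cell membrane genes, was 11.47 in F-36P, 11.99 in HEL, 6.79 in KMOE-2, 11.82 in OCI-M1 and 12.64 in OCI-M2, and 9.43 in MO7E, 12.82 in MOLM-16 and 13.35 in SET2. It was near the array median in the erythroleukaemia line KMOE-2 and highest in SET2 and MOLM-16, both on the megakaryoblastic side.

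Haemoglobin genes did not follow the sides either. HBZ, an embryonic alpha-type globin, was 12.62 in F-36P, 10.64 in HEL, 4.57 in KMOE-2, 9.72 in OCI-M1 and 11.83 in OCI-M2, and 4.22 in MO7E, 6.33 in MOLM-16 and 11.02 in SET2. HBE1, the embryonic beta-type globin, was 9.46 in F-36P, 14.08 in HEL, 7.04 in KMOE-2, 8.69 in OCI-M1 and 10.80 in OCI-M2, and 4.77 in MO7E, 8.78 in MOLM-16 and 9.80 in SET2. HBB, the adult beta globin, was 9.20 in F-36P, 10.74 in HEL, 8.26 in KMOE-2, 9.91 in OCI-M1 and 10.93 in OCI-M2, and 7.49 in MO7E, 12.93 in MOLM-16 and 13.82 in SET2. KMOE-2 and MO7E were low for HBZ and HBE1 and the 2 lowest for HBB, while SET2 and MOLM-16 had more HBB than any of the 5 erythroleukaemia lines. HBA1, HBA2, HBG1 and HBG2 have no probe set assigned to that gene alone and were not analysed here.

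Megakaryocyte genes differed in whether they followed the sides. ITGA2B, the alpha subunit of the platelet fibrinogen receptor, was 12.48 in F-36P, 12.93 in HEL, 13.11 in KMOE-2, 12.55 in OCI-M1 and 11.91 in OCI-M2, and 13.90 in MO7E, 13.93 in MOLM-16 and 13.45 in SET2. The sides did not overlap, but all 8 lines were high beside the 22 other units, whose median was 8.41 and range 4.68 to 12.65. FLI1, an ETS factor that drives megakaryocyte genes, was 11.03 in F-36P, 12.77 in HEL, 12.40 in KMOE-2, 4.38 in OCI-M1 and 4.15 in OCI-M2, and 11.91 in MO7E, 11.23 in MOLM-16 and 9.63 in SET2. OCI-M1 and OCI-M2 were at the floor for FLI1, below all 22 other units, whose range was 8.78 to 13.12, whereas the other 3 erythroleukaemia lines overlapped the megakaryoblastic ones.

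Among late platelet genes, the granule chemokines were highest in HEL. PF4, a chemokine of platelet granules, was 6.10 in F-36P, 10.74 in HEL, 5.57 in KMOE-2, 6.40 in OCI-M1 and 5.78 in OCI-M2, and 7.56 in MO7E, 7.54 in MOLM-16 and 9.50 in SET2. PPBP, another granule chemokine, was 4.79 in F-36P, 9.90 in HEL, 5.19 in KMOE-2, 4.34 in OCI-M1 and 4.85 in OCI-M2, and 5.96 in MO7E, 6.61 in MOLM-16 and 8.46 in SET2. TUBB1, the tubulin of the platelet rim, was 7.51 in F-36P, 10.61 in HEL, 6.73 in KMOE-2, 8.50 in OCI-M1 and 6.74 in OCI-M2, and 6.12 in MO7E, 11.20 in MOLM-16 and 10.28 in SET2, with HEL inside the range of MOLM-16 and SET2 and MO7E the lowest. VWF did not exceed 6.51 in any of the 8 lines, so 1 defining marker of mature megakaryocytes was at or below the array median throughout. RUNX1 was not analysed here.

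**Figure D1:**
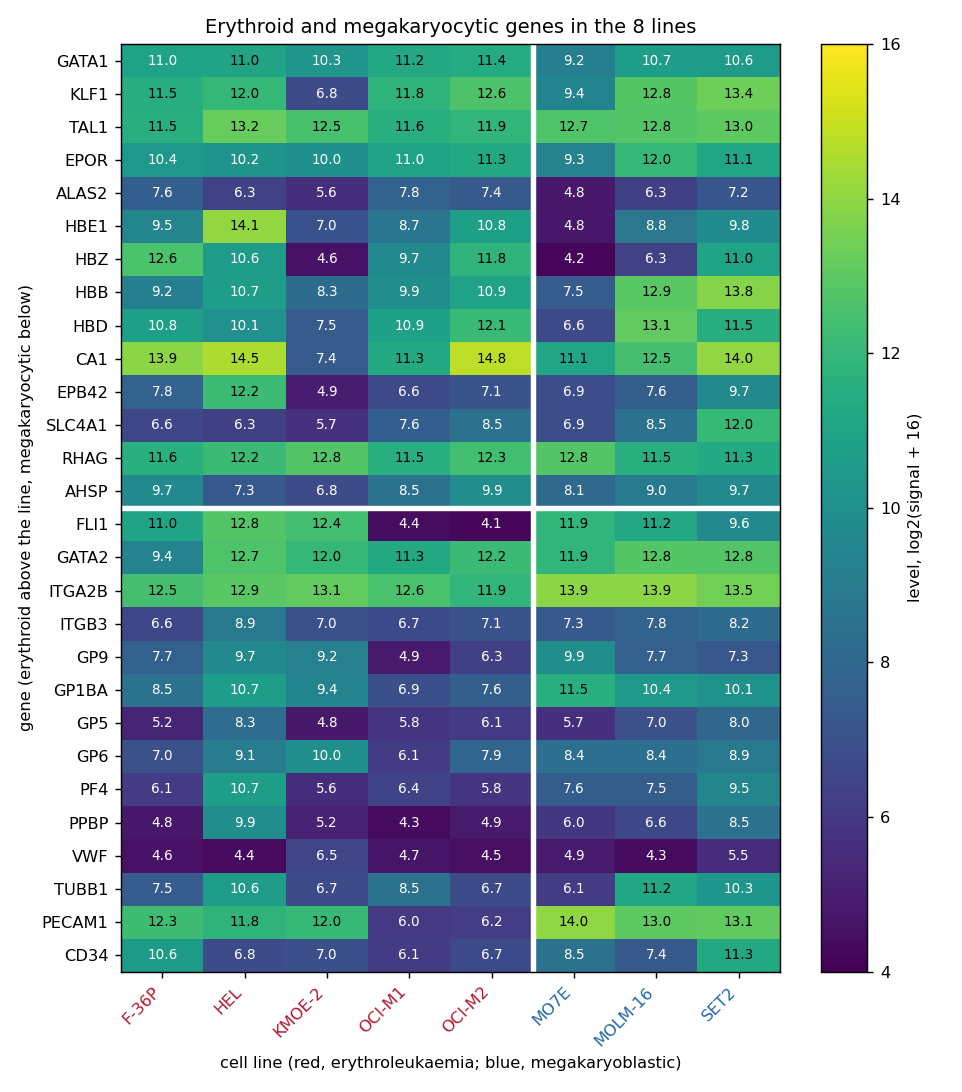
Heat map of log2(signal + 16) for 14 erythroid genes and 14 megakaryocytic genes (rows) in the 8 lines (columns, erythroleukaemia lines first), 1 array per line. KMOE-2 and MO7E are dark for the globins, OCI-M1 and OCI-M2 for FLI1, and SET2 and HEL are bright in both blocks.

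Summed over lists, the same lines stood out. The globin score, the mean over 8 measured globin genes of the level minus that gene's mean over the 30 units, was 2.94 in F-36P, 3.46 in HEL, -0.38 in KMOE-2, 1.91 in OCI-M1 and 4.36 in OCI-M2, and -1.05 in MO7E, 3.16 in MOLM-16 and 4.20 in SET2. The platelet glycoprotein score over 22 genes was 0.36 in F-36P, 2.11 in HEL, 1.30 in KMOE-2, -0.55 in OCI-M1 and 0.71 in OCI-M2, and 1.44 in MO7E, 0.87 in MOLM-16 and 1.17 in SET2. The sides overlapped in both scores, and the highest platelet score belonged to an erythroleukaemia line. The score over red cell membrane and blood group genes ran from -0.08 in KMOE-2 and 0.47 in MO7E to 2.13 in MOLM-16 and 2.51 in SET2, with the highest of the 22 other units at 0.23.

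**Figure D2:**
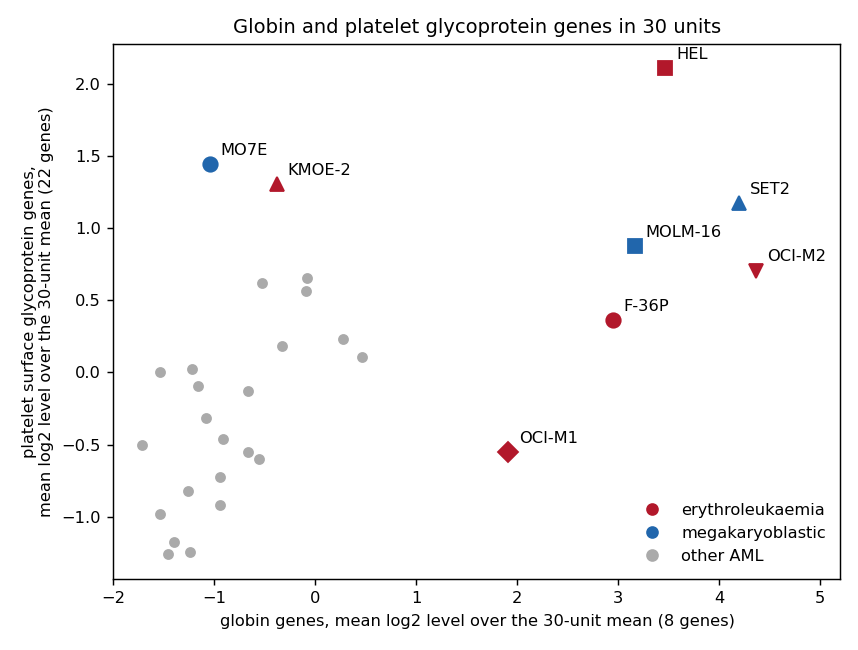
Globin score (x axis, 8 genes) against platelet glycoprotein score (y axis, 22 genes) for the 8 lines and the 22 other units, in log2 units relative to each gene's mean over the 30 units. KMOE-2 and MO7E lie at the left among the other units for globins, HEL lies at the top with 2.11, and OCI-M1 is the lowest of the 8 for platelet glycoproteins with -0.55.

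Correlations between whole profiles gave no split by side. Over 15455 genes, which are not independent replicates, the median Pearson r was 0.851 for the 10 pairs within the erythroleukaemia side, 0.847 for the 3 pairs within the megakaryoblastic side and 0.861 for the 15 pairs across sides. SET2 was nearest to MOLM-16 (r = 0.915), but HEL and OCI-M1 were both nearest to SET2 (r = 0.893 and 0.880), OCI-M2 to MOLM-16 and MO7E to KMOE-2, all across the sides. F-36P was nearest to OCI-M1 and KMOE-2 to HEL. These values are a description, given without a test.

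**Figure D3:**
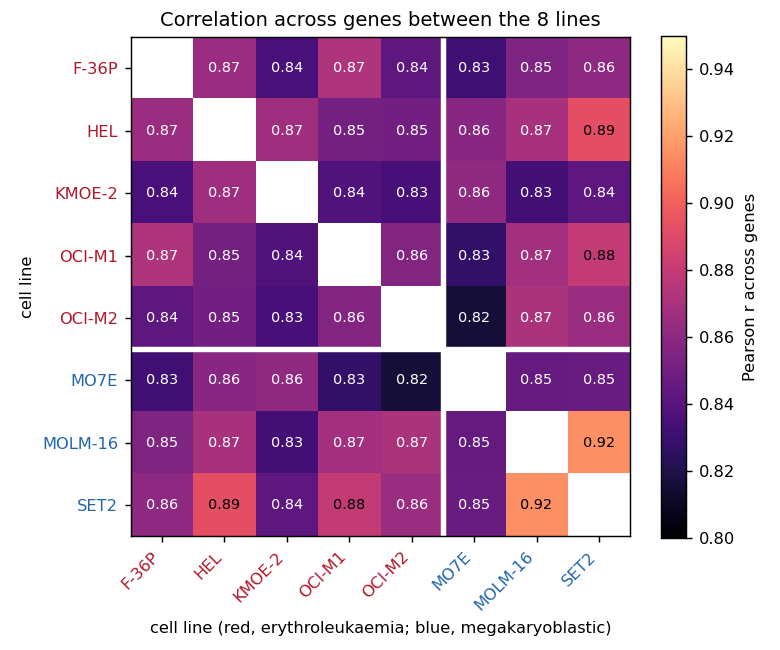
Pearson r over 15455 genes for each pair of the 8 lines, with both axes listing the lines and the colour and printed value giving r. The brightest pair is MOLM-16 with SET2 at 0.915, and HEL with SET2, a pair across the sides, is at 0.893.

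The comparison of the 5 erythroleukaemia with the 3 megakaryoblastic lines found a single gene past the threshold. Of 12347 genes tested with limma, 1 was called at an adjusted p under 0.05 (0.00810%), CYYR1. It was lower in the erythroleukaemia lines, and no gene was called higher (0%). An unadjusted p under 0.05 was reached by 796 genes (6.45%), 336 higher (2.72%) and 460 lower (3.73%). In 606 genes (4.91%) the sides did not overlap, 229 higher (1.85%) and 377 lower (3.05%) in erythroleukaemia. The median difference over all genes tested was -0.06, erythroleukaemia minus megakaryoblastic, as are all differences between the sides below.

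CYYR1, which encodes a small membrane protein rich in cysteine and tyrosine, was 4.22 in F-36P, 5.14 in HEL, 5.70 in KMOE-2, 4.94 in OCI-M1 and 5.04 in OCI-M2, and 11.12 in MO7E, 9.39 in MOLM-16 and 10.70 in SET2. All 5 erythroleukaemia lines were near the floor, and the 3 megakaryoblastic lines were above the highest of the 22 other units, 8.66. The difference was -5.40 ± 0.51 (SE, limma adjusted p = 0.0294), and a second probe set of the gene gave -5.46. The call depended on single lines. Without F-36P the adjusted p was 0.0891, without OCI-M1 0.0742, without OCI-M2 0.0723 and without HEL 0.0732, and it held at 0.0315 without KMOE-2. CYYR1 entered the test only through the 3 megakaryoblastic lines, the only ones above the array median, and the filter needs 3. Without any one of them it could not be tested. With no filter on low values the limma adjusted p was 0.0423, and with a filter 1 log2 unit higher it was 0.0953. With HEL and SET2 as a pair term it was 0.125.

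Among the named genes that did not pass, ERG had the largest difference. ERG, an ETS factor of stem cells and megakaryocytes, was 6.67 in F-36P, 6.62 in HEL, 8.06 in KMOE-2, 4.29 in OCI-M1 and 5.29 in OCI-M2, and 12.71 in MO7E, 12.07 in MOLM-16 and 11.81 in SET2. The 22 other units ranged from 4.35 to 11.86. The 3 megakaryoblastic lines were high, and the nearest erythroleukaemia line was KMOE-2. The difference was -6.01 ± 0.78 (SE, limma adjusted p = 0.126), and the other 3 probe sets gave -2.95, -2.92 and -4.21. CDK2AP1, which binds the cell cycle kinase CDK2 and was singled out here after its values were seen, was 11.92 in F-36P, 11.91 in HEL, 12.05 in KMOE-2, 11.14 in OCI-M1 and 11.94 in OCI-M2, and 14.10 in MO7E, 13.93 in MOLM-16 and 13.61 in SET2. Both sides were tight, with a difference of -2.09 ± 0.26 (SE, limma adjusted p = 0.126).

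Further genes of largest difference without overlap were lower in each erythroleukaemia line than in each megakaryoblastic line, and none of them passed. SOX4, a factor of progenitor cells, was 6.91 in F-36P, 7.66 in HEL, 11.89 in KMOE-2, 5.27 in OCI-M1 and 11.38 in OCI-M2, and 12.77 in MO7E, 13.47 in MOLM-16 and 12.78 in SET2. Its difference was -4.39 ± 1.44 (SE, limma adjusted p = 0.755). KMOE-2 and OCI-M2 came close to the megakaryoblastic lines, and F-36P, HEL and OCI-M1 lay far below. JAK3, the kinase that works with the common gamma chain of interleukin receptors, was 7.49 in F-36P, 11.11 in HEL, 9.77 in KMOE-2, 5.55 in OCI-M1 and 5.55 in OCI-M2, and 11.52 in MO7E, 12.64 in MOLM-16 and 11.35 in SET2. Its difference was -3.94 ± 1.27 (SE, limma adjusted p = 0.755). HEL was close to SET2 here, and the 3 dimmer JAK3 probe sets gave -0.74, -0.88 and 0.11. IGLL1, part of the surrogate light chain of early B cells, was 4.62 in F-36P, 6.63 in HEL, 4.61 in KMOE-2, 8.24 in OCI-M1 and 5.17 in OCI-M2, and 13.72 in MO7E, 9.05 in MOLM-16 and 8.56 in SET2. MO7E stood above the rest, and the difference was -4.59 ± 1.28 (SE, limma adjusted p = 0.7).

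GNG2, a gamma subunit of heterotrimeric G proteins, was 5.19 in F-36P, 7.83 in HEL, 4.35 in KMOE-2, 9.63 in OCI-M1 and 8.68 in OCI-M2, and 11.18 in MO7E, 11.85 in MOLM-16 and 11.67 in SET2. Its difference was -4.43 ± 1.15 (SE, limma adjusted p = 0.645). IGFBP7, a secreted binding protein of insulin-like growth factors, was 5.46 in F-36P, 8.04 in HEL, 10.70 in KMOE-2, 8.52 in OCI-M1 and 7.34 in OCI-M2, and 13.29 in MO7E, 11.87 in MOLM-16 and 10.91 in SET2. Here SET2 and KMOE-2 nearly met, and the other 22 units spanned 8.68 to 13.16. C19orf33 was 4.69 in F-36P, 4.42 in HEL, 4.74 in KMOE-2, 6.58 in OCI-M1 and 5.22 in OCI-M2, and 7.67 in MO7E, 8.29 in MOLM-16 and 11.13 in SET2, with SET2 the highest. C19orf33 entered the test only through the megakaryoblastic lines, the only ones above the array median. PECAM1, an adhesion molecule of platelets and endothelium, was 12.26 in F-36P, 11.83 in HEL, 12.03 in KMOE-2, 5.98 in OCI-M1 and 6.18 in OCI-M2, and 14.02 in MO7E, 13.02 in MOLM-16 and 13.08 in SET2. OCI-M1 and OCI-M2, the lines with FLI1 at the floor, were below the array median, and the difference was -3.72 ± 1.63 (SE, limma adjusted p = 0.769).

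In the other direction, no gene passed. KCNE3, an accessory subunit of potassium channels, was 12.38 in F-36P, 12.39 in HEL, 10.50 in KMOE-2, 12.89 in OCI-M1 and 10.11 in OCI-M2, and 6.76 in MO7E, 7.78 in MOLM-16 and 9.85 in SET2. Its difference was 3.53 ± 0.85 (SE, limma adjusted p = 0.622). OCI-M2 and SET2 were the nearest pair across the sides. CPVL, a carboxypeptidase, was 12.75 in F-36P, 11.12 in HEL, 9.76 in KMOE-2, 11.11 in OCI-M1 and 11.02 in OCI-M2, and 5.55 in MO7E, 8.28 in MOLM-16 and 9.60 in SET2. Its difference was 3.34 ± 0.91 (SE, limma adjusted p = 0.659); KMOE-2 and SET2 almost touched. NOS3, the endothelial nitric oxide synthase, was 8.92 in F-36P, 7.92 in HEL, 7.76 in KMOE-2, 8.05 in OCI-M1 and 9.27 in OCI-M2, and 4.22 in MO7E, 6.46 in MOLM-16 and 4.62 in SET2. All 5 erythroleukaemia lines were above the highest of the 22 other units, 7.12, and the difference was 3.28 ± 0.61 (SE, limma adjusted p = 0.582). NOS3 entered the test only through these 5 lines, the only ones of the 8 above the array median. The second NOS3 probe set was near the floor in all 8 lines.

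LIN28B, the RNA-binding protein that blocks let-7 microRNAs in fetal cells, was 11.51 in F-36P, 12.97 in HEL, 12.43 in KMOE-2, 11.82 in OCI-M1 and 12.78 in OCI-M2, and 10.95 in MO7E, 5.33 in MOLM-16 and 11.28 in SET2. MOLM-16 was near the floor and the other 7 lines lay between 10.95 and 12.97, and the difference was 3.11 ± 1.21 (SE, limma adjusted p = 0.755). TRIB1, a pseudokinase that marks C/EBP-alpha for degradation, was 10.43 in F-36P, 11.91 in HEL, 11.02 in KMOE-2, 9.08 in OCI-M1 and 9.40 in OCI-M2, and 8.73 in MO7E, 6.17 in MOLM-16 and 8.23 in SET2. Its difference was 2.66 ± 0.78 (SE, limma adjusted p = 0.718). CEBPA, the gene of that granulocyte factor, was 10.21 in F-36P, 6.86 in HEL, 8.84 in KMOE-2, 7.90 in OCI-M1 and 7.37 in OCI-M2, and 5.87 in MO7E, 5.40 in MOLM-16 and 6.86 in SET2. HEL and SET2 were level, and the difference was 2.19 ± 0.76 (SE, limma adjusted p = 0.755). PRKAR2B, a regulatory subunit of protein kinase A, was 12.51 in F-36P, 11.95 in HEL, 12.84 in KMOE-2, 11.55 in OCI-M1 and 12.86 in OCI-M2, and 10.30 in MO7E, 10.73 in MOLM-16 and 11.24 in SET2. Its difference was 1.59 ± 0.37 (SE, limma adjusted p = 0.618), and 6 lines, all but MO7E and MOLM-16, were above the highest of the 22 other units, 11.01.

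**Figure D4:**
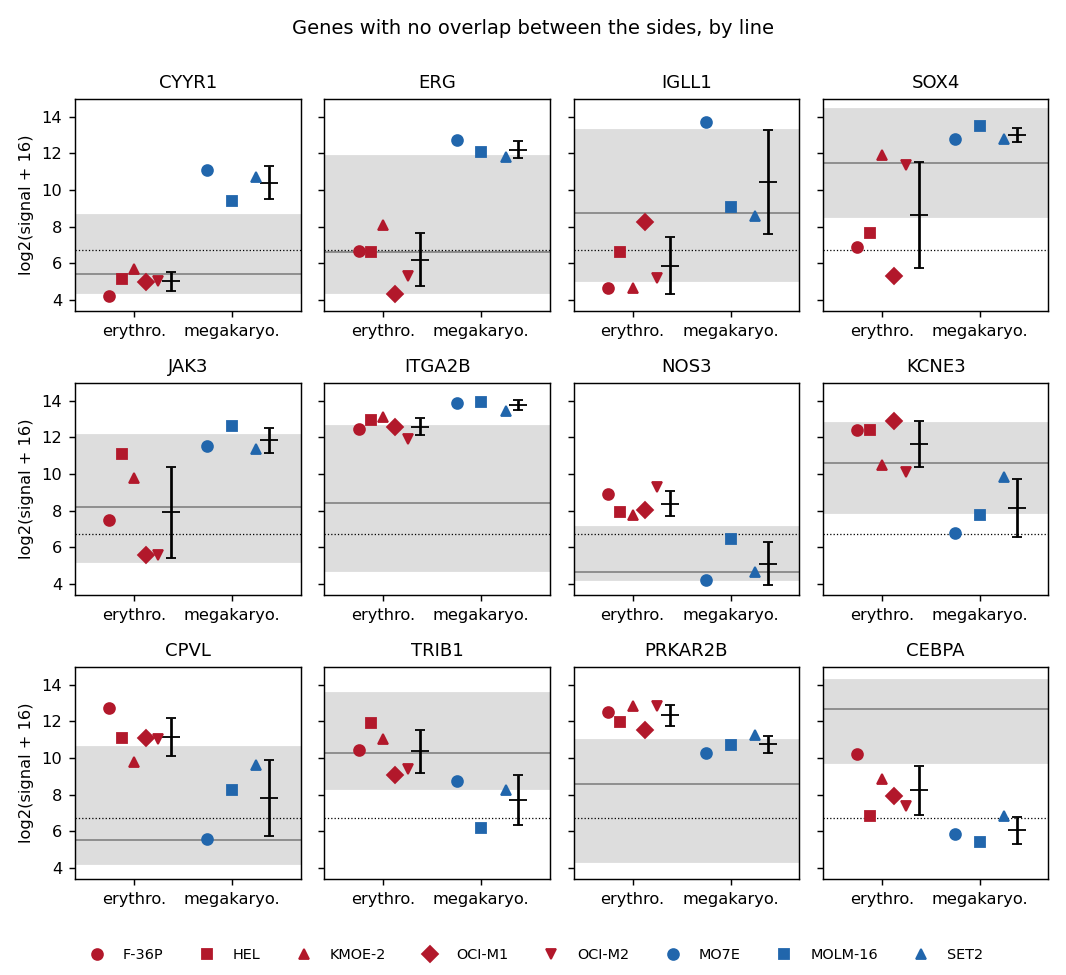
Log2(signal + 16) of 12 genes in the 5 erythroleukaemia and 3 megakaryoblastic lines, 1 point per line, with the mean and SD as bars; the grey band is the range and the solid line the median of the 22 other units, and the dotted line is the median of all levels, 6.73. CYYR1 is near the floor in all 5 erythroleukaemia lines, and NOS3 shows the reverse with the 3 megakaryoblastic lines between 4.22 and 6.46.

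Gene lists for the lineages held genes on both sides, and with 1 gene called in all, the lack of calls in the 26 lists says nothing about their members. Of 8 measured globins 4 were higher and 4 lower in erythroleukaemia (median 0.10), of 19 erythroid transcription factors 6 and 13 (median -0.07), of 17 genes of heme synthesis and breakdown 8 and 9, and of 25 red cell membrane and blood group genes 6 and 19 (median -0.36), beside 5595 higher and 6752 lower over all genes tested. Of 19 tested platelet surface glycoproteins 7 were higher and 12 lower (median -0.56), with ITGA2B and PECAM1 lower without overlap; 3 of the 19 were lower and 1 higher at an unadjusted p under 0.05, beside 3.73% and 2.72% of all genes. Of 15 megakaryocyte transcription factors 6 were higher and 9 lower (median -0.29), 3 of them lower at an unadjusted p under 0.05. Of 13 platelet granule genes 7 were higher and 6 lower, and of 25 megakaryocyte cytoskeleton and signalling genes 12 and 13. With each array centred on its median the erythroid factors split 10 to 9 with a median of 0.06, so that list has no direction. BCL11A, the repressor of fetal globin, was 9.70 in F-36P, 8.86 in HEL, 10.47 in KMOE-2, 8.43 in OCI-M1 and 7.86 in OCI-M2, and 11.60 in MO7E, 10.48 in MOLM-16 and 10.85 in SET2. The sides did not overlap and the difference was -1.91 ± 0.59 (SE, limma adjusted p = 0.755).

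A few further lists leaned to 1 side. Of 22 tested interferon-induced genes, 20 were higher in the erythroleukaemia lines (median 1.01), and 18 without KMOE-2 (median 0.55). At an unadjusted limma p under 0.05, 1 of the 22 was higher and 0 lower, beside 2.72% and 3.73% of all genes. Without overlap 1 was higher and 1 lower, beside 1.85% and 3.05% of all genes. ISG15, a ubiquitin-like protein of the interferon response, was 11.86 in F-36P, 10.33 in HEL, 14.32 in KMOE-2, 11.06 in OCI-M1 and 14.06 in OCI-M2, and 10.27 in MO7E, 9.97 in MOLM-16 and 11.68 in SET2. KMOE-2 and OCI-M2 were high and HEL and OCI-M1 lay among the megakaryoblastic lines, so the sides overlapped. IFNB1, the gene of interferon beta, was 10.30 in KMOE-2, at most 5.64 in the other 7 lines and at most 6.62 in the 22 other units; its part in the list's values was not tested. BST2 went against the list: it was 8.99 in F-36P, 4.70 in HEL, 10.41 in KMOE-2, 11.66 in OCI-M1 and 11.73 in OCI-M2, and 12.66 in MO7E, 12.23 in MOLM-16 and 12.02 in SET2, lower in each erythroleukaemia line with a difference of -2.81 ± 1.44 (SE, limma adjusted p = 0.803).

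Of 8 tested HOXB genes, which pattern the embryo and are kept on in blood progenitors, 7 were higher in the erythroleukaemia lines (median 1.56), and 7 also without KMOE-2 (median 1.01). HOXB9 was 6.90 in F-36P, 10.11 in HEL, 12.34 in KMOE-2, 11.85 in OCI-M1 and 9.56 in OCI-M2, and 6.10 in MO7E, 8.53 in MOLM-16 and 6.74 in SET2, and F-36P was within the range of the megakaryoblastic lines. All 8 tested genes of the fetal programme, a list that includes the globins HBZ and HBE1, were higher on average (median 1.5). LIN28B and IGF2BP2, an RNA-binding protein, were higher without overlap, beside 1.85% of all genes tested. For LIN28B only MOLM-16 was near the floor, and this list was not counted with a line left out. All 6 tested T and NK cell genes were lower (median -1.37), and 5 of 6 without MO7E (median -0.60). This holds on the authors' scale; with quantile normalization or median centring 8 were tested, 2 higher and 6 lower. NCAM1, the NK cell adhesion molecule CD56, was 13.08 in MO7E, and MO7E also had 13.12 for CD3D, a subunit of the T cell receptor complex, and 11.73 for ZAP70, the kinase of that receptor.

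HEL and SET2 were then set against the other 6 lines with the side as a term in the model, because both carry JAK2 V617F. Of 12347 genes 2 were called (0.0162%), both lower in HEL and SET2, and none higher (0%). A gene above the array median only in HEL and SET2 could not be tested, as the filter needs 3 lines. A gene low only in those 2 could be. An unadjusted p under 0.05 was reached by 563 genes (4.56%). HEL and SET2 both lay above the other 6 in 408 genes (3.30%) and both below in 409 (3.31%). Both called genes lie on the short arm of chromosome 9, which also carries JAK2 nearer its end.

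KLHL9, an adaptor of a ubiquitin ligase that acts in cell division, was 10.88 in F-36P, 4.81 in HEL, 11.86 in KMOE-2, 10.87 in OCI-M1 and 11.12 in OCI-M2, and 10.97 in MO7E, 10.85 in MOLM-16 and 4.55 in SET2. HEL and SET2 were at the floor and the other 6 lines between 10.85 and 11.86; of the 22 other units 1 was below the array median. The difference was -6.36 ± 0.38 (SE, limma adjusted p = 0.00241), and a second probe set was 4.28 in HEL and 5.13 in SET2 against 8.28 to 9.84 in the other 6. Another, dimmer one was 4.68 in HEL, 6.21 in SET2 and 6.62 to 7.95 in the other 6, and the last was below the array median in all 8. FOCAD, a protein of focal adhesions, was 10.54 in F-36P, 4.26 in HEL, 10.53 in KMOE-2, 9.48 in OCI-M1 and 10.38 in OCI-M2, and 9.24 in MO7E, 10.24 in MOLM-16 and 4.32 in SET2, with the 22 other units at 7.53 to 11.08 and a difference of -5.72 ± 0.47 (SE, limma adjusted p = 0.0148). The second FOCAD probe set was below the array median in all 8 lines, with 6.25 in HEL inside the 5.15 to 6.30 of the other 6. Without HEL no gene was called, with an adjusted p of 0.176 for KLHL9 and 0.647 for FOCAD. KLHL9 kept its call without any one of the other 7 lines; without SET2 that compares HEL alone with the other erythroleukaemia lines, and HEL is assumed to vary like them. FOCAD was also lost without F-36P (0.073), OCI-M2 (0.0821), MOLM-16 (0.068) or SET2 (0.0963).

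Neighbours of these genes in the RefSeq order followed in part. HACD4, an enzyme of very long fatty acid synthesis between FOCAD and KLHL9, was 10.51 in F-36P, 4.13 in HEL, 12.82 in KMOE-2, 10.11 in OCI-M1 and 9.88 in OCI-M2, and 10.47 in MO7E, 9.83 in MOLM-16 and 4.83 in SET2, with both lines at the floor and a difference of -6.07 ± 0.80 (SE, limma adjusted p = 0.304). Its second probe set was below the array median in all 8 lines, and HEL and SET2 lay inside the range of the others there. MTAP, the methionine salvage enzyme next to the CDKN2A locus, was 4.19 in F-36P, 4.29 in HEL, 11.99 in KMOE-2, 9.46 in OCI-M1 and 10.09 in OCI-M2, and 9.23 in MO7E, 9.96 in MOLM-16 and 4.36 in SET2. It was at the floor in HEL, SET2 and also F-36P, and below the array median in 4 of the 22 other units. CDKN2A, which encodes the cell cycle inhibitors p16 and p14ARF, was 6.86 in F-36P, 6.04 in HEL, 14.44 in KMOE-2, 13.05 in OCI-M1 and 13.98 in OCI-M2, and 11.20 in MO7E, 14.05 in MOLM-16 and 6.92 in SET2, again lowest in these 3 lines.

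Beyond these genes, HEL and SET2 differed in which genes had low signal. MLLT3, on the far side of FOCAD, was 9.30 in F-36P, 11.90 in HEL, 11.61 in KMOE-2, 8.30 in OCI-M1 and 10.23 in OCI-M2, and 8.32 in MO7E, 10.09 in MOLM-16 and 5.52 in SET2, highest in HEL and below the array median in SET2. CAAP1, PLAA and IFT74, beyond CDKN2B, were 5.18, 5.65 and 4.17 in SET2, while in the other 7 lines CAAP1 was 10.13 to 11.86, PLAA 9.43 to 11.31 and IFT74 7.97 to 10.34. HEL was not low for any of these 3. The SET2 value of MLLT3 lay within the 5.48 to 10.74 of the 22 other units. Some genes between KLHL9 and CAAP1, among them IFNA2, IFNA8 and IFNA1, were below the array median in all 8 lines. An unbroken stretch of low signal is therefore not shown. Signal at the floor in neighbouring genes is what the arrays show, and the copy number of the region was not measured.

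**Figure D5:**
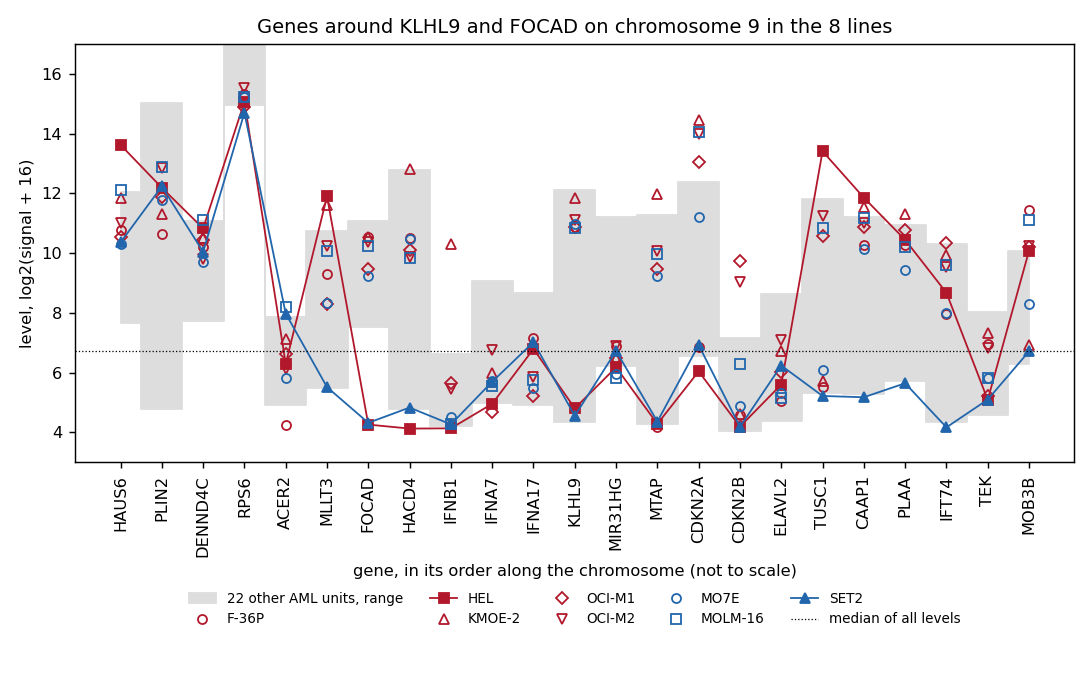
Log2(signal + 16) of genes in their order along the short arm of chromosome 9 (x axis, evenly spaced) in the 8 lines, for genes above 6.73 in at least 1 line. On the probe set used for each gene, HEL and SET2 are at the floor together at FOCAD, HACD4 and KLHL9, F-36P joins them at MTAP, and SET2 alone is low at CAAP1, PLAA and IFT74.

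JAK2 itself was 11.56 in F-36P, 10.86 in HEL, 8.36 in KMOE-2, 13.23 in OCI-M1 and 7.93 in OCI-M2, and 7.51 in MO7E, 9.11 in MOLM-16 and 10.44 in SET2. OCI-M1 and F-36P were above HEL and SET2, so the mutated lines were not set apart by the level of the gene. ASNS, the asparagine synthetase of the amino acid stress response, was 14.13 in F-36P, 10.07 in HEL, 13.82 in KMOE-2, 14.44 in OCI-M1 and 13.13 in OCI-M2, and 14.004 in MO7E, 12.14 in MOLM-16 and 9.82 in SET2. It was lowest in HEL and SET2, with a difference of -3.55 ± 0.53 (SE, limma adjusted p = 0.496). CHAC1, a target of the same response, was 10.50 in F-36P, 6.59 in HEL, 11.53 in KMOE-2, 11.60 in OCI-M1 and 9.89 in OCI-M2, and 10.48 in MO7E, 9.91 in MOLM-16 and 7.97 in SET2. DDIT4, a stress-induced inhibitor of mTORC1, was 14.27 in F-36P, 8.50 in HEL, 13.50 in KMOE-2, 14.19 in OCI-M1 and 13.92 in OCI-M2, and 12.17 in MO7E, 12.72 in MOLM-16 and 11.32 in SET2. HEL and SET2 were the 2 lowest lines for all 3 genes, and none of the 3 passed the threshold.

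Among tested genes highest in HEL and SET2, none passed over the 8 lines. EPB42 and PF4 were called higher when all 32 lines were fitted in 3 groups. That fit takes its error mostly from the 24 other lines, so its p-values do not measure the spread between the 8 lines. HEL and SET2 both lay above the other 6 in 3.30% of all genes tested and both below in 3.31%. Among 25 red cell membrane and blood group genes they lay above in 3 and below in 1. Among 13 platelet granule genes they lay above in 2 and below in 1. SLC4A1, the red cell anion exchanger, was not among those red cell genes, at 6.27 in HEL. PF4 differed by 3.49 ± 0.64 (SE, limma adjusted p = 0.998). EPB42, a protein of the red cell membrane skeleton, was 7.75 in F-36P, 12.21 in HEL, 4.91 in KMOE-2, 6.63 in OCI-M1 and 7.10 in OCI-M2, and 6.85 in MO7E, 7.61 in MOLM-16 and 9.67 in SET2, with the 22 other units at 4.42 to 6.18 and a difference of 4.17 ± 0.92 (SE, limma adjusted p = 0.998). KAZN, a protein of cell junctions, was 4.95 in F-36P, 11.56 in HEL, 7.85 in KMOE-2, 6.09 in OCI-M1 and 4.43 in OCI-M2, and 6.46 in MO7E, 5.33 in MOLM-16 and 10.53 in SET2. Its difference was 5.23 ± 0.91 (SE, limma adjusted p = 0.938). HPGD, which inactivates prostaglandins, was 7.11 in F-36P, 13.85 in HEL, 6.78 in KMOE-2, 8.99 in OCI-M1 and 11.02 in OCI-M2, and 9.96 in MO7E, 7.04 in MOLM-16 and 11.81 in SET2. TUBA4A, an alpha tubulin, was 10.74 in F-36P, 13.81 in HEL, 9.09 in KMOE-2, 9.71 in OCI-M1 and 9.65 in OCI-M2, and 11.63 in MO7E, 11.30 in MOLM-16 and 13.23 in SET2. For both genes HEL came first and SET2 second.

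The 8 lines together were then compared with the rest of the series, with more units and so a test that can call smaller differences than that between the sides. Of 15455 genes tested against the 22 other units, 923 were higher (5.97%) and 873 lower (5.65%) in the 8 lines, 1796 in all (11.6%). The median difference over all genes was -0.08 on the authors' scale and 0.11 with each array centred on its median, under which 1112 were higher and 577 lower, so the balance of the directions depends on the scaling. All 8 arrays of the series with a GAPDH ratio above 2 and both arrays with a median signal of 198.4 or more were in the comparison group. Without the 8 there were 1510 calls and without the 2 there were 2153. All 8 lines were above every other unit in 5 genes (0.0324%) and below every one in 13 (0.0841%).

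CAVIN2, a coat protein of caveolae first found in platelets, was 11.56 in F-36P, 11.55 in HEL, 12.78 in KMOE-2, 10.24 in OCI-M1 and 11.28 in OCI-M2, and 9.90 in MO7E, 9.58 in MOLM-16 and 10.65 in SET2. All 8 values were above the other units' 4.07 to 8.80, and it rose by 5.41 ± 0.57 (SE, limma adjusted p = 9.87e-08). The other 4 genes above every unit were AKAP19, AQP10, HECW2-AS1 and UBASH3A. MYL4, a myosin light chain of embryonic muscle and red cell precursors, was 14.51 in F-36P, 13.80 in HEL, 8.47 in KMOE-2, 12.59 in OCI-M1 and 13.14 in OCI-M2, and 12.79 in MO7E, 13.47 in MOLM-16 and 13.57 in SET2. KMOE-2 was the lowest and within the other units' 6.42 to 9.12, and the gene rose by 5.28 ± 0.43 (SE, limma adjusted p = 2.07e-09). RHAG, the glycoprotein that anchors the Rh antigens, was 11.61 in F-36P, 12.18 in HEL, 12.79 in KMOE-2, 11.51 in OCI-M1 and 12.35 in OCI-M2, and 12.81 in MO7E, 11.52 in MOLM-16 and 11.32 in SET2. KMOE-2 and MO7E, poor in globins, were highest here, and the rise was 4.69 ± 0.41 (SE, limma adjusted p = 3.7e-09). GFI1B, a repressor needed for both lineages, was 11.40 in F-36P, 12.78 in HEL, 12.21 in KMOE-2, 11.74 in OCI-M1 and 13.22 in OCI-M2, and 12.61 in MO7E, 10.71 in MOLM-16 and 11.38 in SET2 and rose by 5.37 ± 0.91 (SE, limma adjusted p = 0.000136).

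Many erythroid genes were among those that rose, beside the 5.97% of all genes tested. Of 8 globins 7 rose and none fell (median 2.95), of 25 red cell membrane and blood group genes 13 rose (median 1.81), of 19 erythroid transcription factors 9 rose and 2 fell, and of 17 heme genes 5 rose and 1 fell. KLF1 rose by 4.86 ± 0.60 (SE, limma adjusted p = 1.28e-06), TAL1, a partner of GATA1 on DNA, by 4.53 ± 0.81 (SE, limma adjusted p = 0.000288) and GATA1 by 4.05 ± 0.50 (SE, limma adjusted p = 1.18e-06). UROD, an enzyme in the middle of heme synthesis, rose by 1.999 ± 0.26 (SE, limma adjusted p = 2.79e-06), and KEL, the Kell blood group antigen, by 3.86 ± 0.47 (SE, limma adjusted p = 8.84e-07) although it was 5.07 in MO7E. CA1, the red cell carbonic anhydrase, was 7.44 in KMOE-2 and 11.05 to 14.83 in the other 7 lines.

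Of 22 platelet glycoproteins 11 rose and none fell (median 1.25), beside 5.97% and 5.65% of all genes tested. Of 15 megakaryocyte transcription factors 6 rose and 2 fell, and of 26 megakaryocyte cytoskeleton and signalling genes 10 rose and 3 fell. By the mean score of the megakaryocyte transcription factors, GDM-1, among the other units, ranked 1 of 30. KMOE-2 ranked 2, SET2 3, MOLM-16 4, HEL 5, MO7E 8, F-36P 10, OCI-M1 14 and OCI-M2 19. By platelet glycoprotein score HEL, MO7E, KMOE-2, SET2, MOLM-16 and OCI-M2 ranked 1 to 6. GDM-1 ranked 7, HNT-34 8 and ME-1 9, above F-36P at 10 and OCI-M1 at 21. ITGA2B rose by 4.34 ± 0.83 (SE, limma adjusted p = 0.00061), and CMTM5, a MARVEL-domain membrane protein, by 3.65 ± 0.54 (SE, limma adjusted p = 2.34e-05). F2RL2, a thrombin receptor of the PAR family, was 8.87 in F-36P, 12.53 in HEL, 11.81 in KMOE-2, 5.19 in OCI-M1 and 10.22 in OCI-M2, and 7.58 in MO7E, 4.44 in MOLM-16 and 4.18 in SET2. It was at the floor in MOLM-16 and SET2 and highest in HEL and KMOE-2, and its rise over the other units was 3.25 ± 0.71 (SE, limma adjusted p = 0.00239). Of 17 JAK-STAT components 5 rose and 4 fell; STAT3 rose by 1.51 ± 0.32 (SE, limma adjusted p = 0.0017) and JAK2 by 1.82 ± 0.46 (SE, limma adjusted p = 0.00875).

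Granulocyte and monocyte genes were on the falling side. Of 17 granule genes of neutrophils and eosinophils 10 fell and none rose (median -2.37), and of 18 monocyte and macrophage genes 8 fell and none rose (median -1.41), beside 5.65% of all genes. Some other units were as low. By granule score the 8 lines ranked 21 to 29 of the 30 units, with KG-1/KG-1A at 27 and HNT-34 lowest at 30. By monocyte score the 8 lines ranked 18 to 30, with NB-4, KASUMI-1, HNT-34, KG-1/KG-1A and ME-1 among them. AZU1, a protease homologue of neutrophil granules, was 4.79 in F-36P, 4.54 in HEL, 5.94 in KMOE-2, 6.31 in OCI-M1 and 4.97 in OCI-M2, and 6.05 in MO7E, 6.19 in MOLM-16 and 7.29 in SET2, against a median of 12.73 in the other units. MPO, the myeloperoxidase of those granules, was 5.54 in F-36P, 5.43 in HEL, 5.91 in KMOE-2, 5.81 in OCI-M1 and 6.46 in OCI-M2, and 9.92 in MO7E, 5.74 in MOLM-16 and 5.02 in SET2. It was below the array median in 7 lines and at 9.92 in MO7E. CEBPA changed by -4.78 ± 0.58 (SE, limma adjusted p = 7.96e-07), with F-36P, at 10.21, reaching the other units' range of 9.74 to 14.28.

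Each line also had genes of its own. Counting only genes above the array median in at least 3 of the 8 lines, a filter that leaves out genes high in 1 or 2 lines such as IFNB1, MO7E was highest by more than 3 log2 units over the next of the 8 in 16 genes, OCI-M2 in 10, OCI-M1 in 9, F-36P in 8, KMOE-2 in 7, SET2 in 4, HEL in 3 and MOLM-16 in 1. Among these genes, F-36P led for ALOX5, the 5-lipoxygenase of leukotriene synthesis, at 12.38, which was 30.7-fold over OCI-M2, and MOLM-16 for TMEM176B, 39.1-fold over the next line. SET2 led for SLC4A1, which was 6.58 in F-36P, 6.27 in HEL, 5.69 in KMOE-2, 7.57 in OCI-M1 and 8.50 in OCI-M2, and 6.89 in MO7E, 8.54 in MOLM-16 and 12.05 in SET2. That gene of late red cells was thus highest in a megakaryoblastic line. MO7E was low for TSPO, a mitochondrial membrane protein, at 5.13 against 10.11 to 12.68 in the other 7. Surface markers also varied within both sides. KIT, the stem cell factor receptor, was 4.55 in F-36P, 9.18 in HEL, 9.81 in KMOE-2, 13.79 in OCI-M1 and 12.75 in OCI-M2, and 13.43 in MO7E, 9.61 in MOLM-16 and 12.32 in SET2. CD36, the thrombospondin receptor, was 4.61 in F-36P, 11.20 in HEL, 4.07 in KMOE-2, 10.39 in OCI-M1 and 11.47 in OCI-M2, and 4.45 in MO7E, 12.41 in MOLM-16 and 12.57 in SET2. It was at the floor in F-36P, KMOE-2 and MO7E and high in the other 5.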

How the data were processed

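Per the submitters' processing notes the authors processed the arrays with Affymetrix Expression Console; the deposited signal values are intensities on a linear scale whose trimmed mean was 500.05 to 500.07 on each array, leaving out 2 percent at each end. Groups came from the line names. Here log2(signal + 16) was computed, 54675 probe sets were matched through the platform annotation and RefSeq (41091 with 1 symbol, 1801 with several, 11721 unnamed here), and each of 19775 genes was given its probe set of highest mean over 32 arrays. Genes above the median level of 6.73 in at least 3 lines or units were tested with limma 3.58.1 (R 4.3.3; lmFit, eBayes with a mean-variance trend, Benjamini-Hochberg over all genes tested, two-sided, threshold 0.05), over the 8 lines alone for the sides and for HEL with SET2 (side as a term), and over 30 units for the rest. The code was tested on simulated data. Arrays have no read depth; 1 array per line limits the precision.

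Named genes were the 10 of largest difference in each direction (called first, then those without overlap), the 4 of largest side difference in each of 26 lists, fixed lineage markers, and each line's 3 leading genes. CDK2AP1, the chromosome 9 neighbours, and other list members and array markers in the text were chosen after their values were seen. The members, lists and rules were chosen with earlier results of these data known. Sequences are from RefSeq.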

Additional observations from a re-analysis of the deposited data

Results flagged for a closer look

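In 9 of 57 genes looked at, 1 of the 5 erythroleukaemia lines stood apart from the other 4 by a gap above Dixon's critical value of 0.71 times the range. Many of the 57 genes were chosen because HEL and SET2 differed from the other 6 lines, which by itself sets HEL apart among the 5. This holds for TNS1, KLHL9, FOCAD, DDIT4 and TMEM225B, while PF4 was taken as a fixed lineage marker. The count therefore cannot be set against the about 1 in 20 that chance flags in unselected genes. HEL was high for TNS1, a tensin of focal adhesions, at 10.63 (next line 5.04), for PF4 at 10.74 (6.40) and for PPBP at 9.90 (5.19). HEL was low for KLHL9 at 4.81 (next line 10.87), FOCAD at 4.26 (9.48), DDIT4 at 8.50 (13.50) and TMEM225B at 5.01 (7.72). KMOE-2 was low for KLF1 at 6.79 (next line 11.47). F-36P was high for CD34, a marker of stem and progenitor cells, at 10.55 (next line 6.95), and it was the line grown with interleukin-3; the part of the medium was not tested.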

How the results depend on the processing

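The side comparison called 1 gene; 2 were called with quantile normalization or a pseudocount of 64, and 13 with all 32 lines fitted in 3 groups. It called 0 with a pseudocount of 1 (783 at an unadjusted p under 0.05), a filter 1 log2 unit higher (686), HEL and SET2 as a pair term (757), both of them left out (551) or only the RPMI lines without cytokine (482); leaving out 1 line gave 0 to 4 calls, 4 without KMOE-2 and 0 without any other. CYYR1 was tested in 16 alternatives and called in 9, with differences of -6.48 to -4.12 and adjusted p of 4.25e-05 to 0.143. HEL with SET2 had 2 calls, 1 with a pseudocount of 64, 9 with all 32 lines, and 0 to 4 with a line left out. Of the 9 calls for HEL with SET2 with all 32 lines, 6 were higher, EPB42 and PF4 among them, and 3 lower. The fits over all 32 lines, which also gave CYYR1 its adjusted p of 4.25e-05 in limma, take their error mostly from the 24 other lines. With no filter on low values 3 were called, 1 of them higher, TTC39C. The 8-line comparison had 1393 to 1706 calls with a line left out, beside 1796, 1510 without 8 arrays of high GAPDH ratio and 2153 without 2 of high median signal. With a line left out KLF1 ran from -2.14, EPOR from -0.94 and GP9 from -1.26 to those values. Without MO7E, 1 T and NK cell gene was higher in erythroleukaemia, an alternative added after seeing the data. Differences between the sides that changed sign were never called: KLF1 was 0.11 without KMOE-2, EPOR 0.39 without MOLM-16 and 0.0045 without HEL and SET2, GP9 0.091 without MO7E, and with only the RPMI lines TAL1 was 0.0115, FLI1 1.81 and GP9 0.89. No paired analysis was possible because the replicate numbers only count lines and the sides share no culture or donor. The arrays give no depth, and signal near the floor cannot be told from background.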
